A study of Mus musculus with 9 samples.

Results

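Open regions in gene deserts are places of accessible chromatin far from any protein-coding gene. They were taken from ATAC-seq peak lists of mouse LSK cells, the lineage-negative, Sca-1-positive, Kit-positive fraction of bone marrow in which haematopoietic stem cells and their early progeny are found. ATAC-seq marks open DNA by the insertion of adapters with the Tn5 transposase. On the 19 autosomes (GRCm38), overlapping peaks of the 9 lists were joined into 74587 regions, 1 shared bp being enough. A region was counted as a desert region when its midpoint lay more than 50 kb from the span of each of 19302 protein-coding genes, with genes of Gm-number or Rik names left out. This rule chose 11213 regions of the 74587. The rest comprised 18296 regions between genes within 50 kb of one, called near-gene regions here, 31390 inside genes, and 13688 within 1 kb of a gene end. The choice rests on position alone and on no measured level.

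The libraries came from WT cells (n = 2), cells labelled Bcat_KO (β-catenin, n = 2), HOXA9_KO (n = 2) and PRMT1_KO (n = 2), and cells of a β-catenin and Hoxa9 double mutant, dKO (n = 1). The titles write KO for the mutants where the genotype field writes knockdown, and neither gives an allele, a driver line, an age or a strain. The design text speaks of transplanted Prmt1KO mice, and for the other groups the labels do not say whether cells came from transplants. Replicates are not said to come from separate animals, so a p-value measures only the spread between these libraries, which may be technical.

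Desert regions of this kind can hold enhancers that act on a distant gene, loop anchors bound by CTCF, and promoters of non-coding RNAs and microRNAs. Deserts also hold satellite DNA, ribosomal DNA copies and clusters of recently duplicated genes, where reads from many copies can pile up on 1 place. The nearest gene is given below as an address. Which gene a region acts on, if any, was not measured.

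The 9 lists held 10307 to 44412 autosomal peaks, with the dKO list the shortest and WT replicate 2 next at 27536. The background depth recovered from the lists was 2.41 reads per kb in the dKO, 6.29 and 7.38 in WT and 8.27 to 11.2 in the single mutants. A region without a peak may therefore be one that was not detectable at that depth. On chromosome Y, up to 90 Mb, the WT libraries had 0 desert peaks, each single-mutant library had 5 to 7 and the dKO had 2, so sex and genotype cannot be told apart in any comparison with WT. Gene-end peaks were found in all 8 libraries other than the dKO for 7 of 10 LSK marker genes, among them Kit, Cd34 and Flt3. Ly6a, which encodes Sca-1, had none in any of the 8. Among the lineage genes reported here, Itgam had a peak in 3, Cd79a in 1, and Cd3e, Ly6g and Klrb1c in none. Of 7 genes of non-blood tissues, Col1a1 and Col1a2 had a peak in all 8, Epcam in 7, Pecam1 in 3, Alb and Neurod1 in 2 and Cdh5 in none, and the part of other cells in the desert regions was not tested.

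Some desert regions lay at microRNA genes and at promoters of genes the distance rule does not count, and these are the members for which sequence was at hand. Of 919 autosomal microRNA hairpins in RefSeq (GRCm38.p6), 17 lay within 2 kb of a member, at 12 members. The strongest of these members by percentile, apart from that at Mir713 described further on, lay 980 bp before the Mir17 hairpin, the first of the Mir17 to Mir92-1 cluster, which is known to promote growth and survival of blood progenitors. It spanned 2528 bp (chr14:115040163-115042690), 50.8 kb from Gpc5 and so just inside the distance rule. The mature microRNAs of the cluster are shown because they are what the transcript next to this open region encodes, each read 5′ to 3′ with its seed (bases 2 to 8) in capitals.
miR-17-5p: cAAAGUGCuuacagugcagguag
miR-20a-5p: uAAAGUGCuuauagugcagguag
miR-18a-5p: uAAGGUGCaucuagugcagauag
miR-19a-3p: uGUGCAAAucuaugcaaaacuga
miR-19b-3p: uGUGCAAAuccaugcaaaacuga
miR-92a-3p: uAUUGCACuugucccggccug
The first pair shares 1 seed, miR-19a-3p and miR-19b-3p share another, and miR-18a-5p and miR-92a-3p each have their own. This region also had a high local background, as defined further on. It had a fold over local background of 9.93 and 8.46 in WT, 10.4 and 9.39 for Bcat_KO, 11.3 and 11.6 for HOXA9_KO, 10.2 and 10.9 for PRMT1_KO, and 7.79 in the dKO. All 9 libraries had the peak, and across the 8 libraries of the paired groups the fold was 10.3 ± 1.02 (SD, n = 8). These folds are the authors' own value at the strongest summit, were not normalized between libraries, and serve here only as a description.

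Another member lay 698 bp before the Mir148a hairpin on chromosome 6 (chr6:51270609-51271411), 162 kb from Nfe2l3. Its mature product is shown for its seed, in capitals.
miR-148a-3p: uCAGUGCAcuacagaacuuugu
This region had a fold of 6.61 and 8.52 in WT, 6.18 and 7.40 for Bcat_KO, 6.46 and 5.05 for HOXA9_KO and 8.30 and 6.87 for PRMT1_KO, and no peak in the dKO. WT replicate 2 was the highest and HOXA9_KO replicate 2 the lowest, where the peak fell outside the list of equal length. At Mir9-2, a microRNA gene best known from the nervous system, a member of 1459 bp covered the hairpin (chr13:83737449-83738907). Its fold was low, 3.45 to 5.02 in all 8 libraries, and only 2 of the 8 lists of equal length kept it.

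A further 339 members overlapped a promoter window of RefSeq (250 bases before to 50 after a start), of 342 genes in all. These members recurred more than most: 112 of them, 41.8% of those in any list of equal length, were in all 8. Of the members that opened or closed in a mutant, described below, 2 overlapped such a window, and both had opened in HOXA9_KO. The windows are shown in full because they are the only desert changes with a known start site, with matches to the ETS core GGAAGT on either strand in capitals. Gm32747 lies between Cebpb and Ptpn1 (chr2:167839913-167840212, minus strand) and 4930425K10Rik lies near Grxcr1 (chr5:67943032-67943331, minus strand).
Gm32747: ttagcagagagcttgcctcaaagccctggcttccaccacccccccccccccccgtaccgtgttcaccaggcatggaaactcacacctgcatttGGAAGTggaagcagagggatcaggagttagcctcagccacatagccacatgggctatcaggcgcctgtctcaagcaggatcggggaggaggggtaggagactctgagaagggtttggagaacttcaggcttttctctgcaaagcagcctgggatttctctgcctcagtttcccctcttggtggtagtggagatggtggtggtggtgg
4930425K10Rik: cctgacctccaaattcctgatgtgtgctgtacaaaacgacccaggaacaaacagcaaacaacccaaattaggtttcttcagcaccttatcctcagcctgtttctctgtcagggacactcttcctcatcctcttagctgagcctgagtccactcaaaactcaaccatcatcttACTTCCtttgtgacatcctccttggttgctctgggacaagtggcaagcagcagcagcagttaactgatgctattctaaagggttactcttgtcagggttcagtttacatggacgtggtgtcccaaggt
Each window held 1 match, in a GC content of 57.3% for Gm32747 and 47.3% for 4930425K10Rik. For contrast, the promoter of Ptgs2os2 (chr1:150164899-150165198, minus strand), a non-coding RNA next to the prostaglandin synthase gene Ptgs2, was open in all 9 libraries.
Ptgs2os2: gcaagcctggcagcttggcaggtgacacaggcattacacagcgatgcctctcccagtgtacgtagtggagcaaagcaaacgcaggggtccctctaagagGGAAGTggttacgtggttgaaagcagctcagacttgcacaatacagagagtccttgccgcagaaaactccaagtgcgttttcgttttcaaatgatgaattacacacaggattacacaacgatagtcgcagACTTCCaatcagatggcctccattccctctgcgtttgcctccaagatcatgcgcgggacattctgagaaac
It held 2 matches to the ETS core and 12 CpG sites, against 4 CpG sites for Gm32747 and 2 for 4930425K10Rik. The promoter of Dubr, also at a member in all 8 lists of equal length, held 0 matches to the ETS core and 19 CpG sites. Over the 398 windows at desert regions, 27.6% held an ETS core, against 23.8% of all 32851 windows. The RUNX core TGTGGT was in 25.9% against 16.8%, the GATA core AGATAA in 12.1% against 11.2%, the E-box CAGCTG in 18.3% against 16.3%, the AP-1 motif TGANTCA in 9.05% against 7.81%, and the CTCF core in 1.76% against 0.557%. Over the 139 windows at members in all 8 lists, GATA was in 7.91% and the E-box in 12.2%, both below all windows. In the same 139 windows ETS was in 30.2%, RUNX in 20.9%, AP-1 in 10.8% and CTCF in 2.16%. All motifs were searched on both strands, several windows belong to 1 gene or overlap, and a match is not evidence of binding.

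Many desert regions were narrow, and many came from a single library. The median width was 301 bp, and 4972 of the 11213 members (44.3%) came from 1 library. Their median fold was 3.83 at a median width of 199 bp, against 9.59 and 823 bp for the 461 members found in all 9 libraries. Of the 4425 members of at most 250 bp, 85.6% were in 1 library, against 17.4% of the 6788 wider ones. Regions of at most 250 bp made up 39.5% of desert regions, 33.1% of near-gene regions, 33.7% inside genes and 11.3% at gene ends. Those of 1 library made up 35.4% of near-gene regions, 36.5% inside genes and 13.3% at gene ends.

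Recurrence was compared in lists of equal length, cut to the 27536 strongest autosomal peaks of each of the 8 libraries by −log10 p, because the deposited lists differ in length. In these lists 5845 members had a peak in at least 1 library and 1129 (19.3%) in all 8. The same share was 21.3% for near-gene regions, 24.2% inside genes and 68.9% at gene ends. It fell with distance within the deserts, from 21.5% at 50 to 100 kb through 19.9% at 100 to 200 kb, 16.5% at 200 to 500 kb and 14.6% from 500 kb to 1 Mb to 11.7% beyond 1 Mb, where 103 members were left. The members in all 8 had a median fold of 8.91 at 50 to 100 kb, of 10.2 from 500 kb to 1 Mb and of 9.27 beyond 1 Mb. No test was made of these shares, since regions are not replicates.

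**Figure D1:**
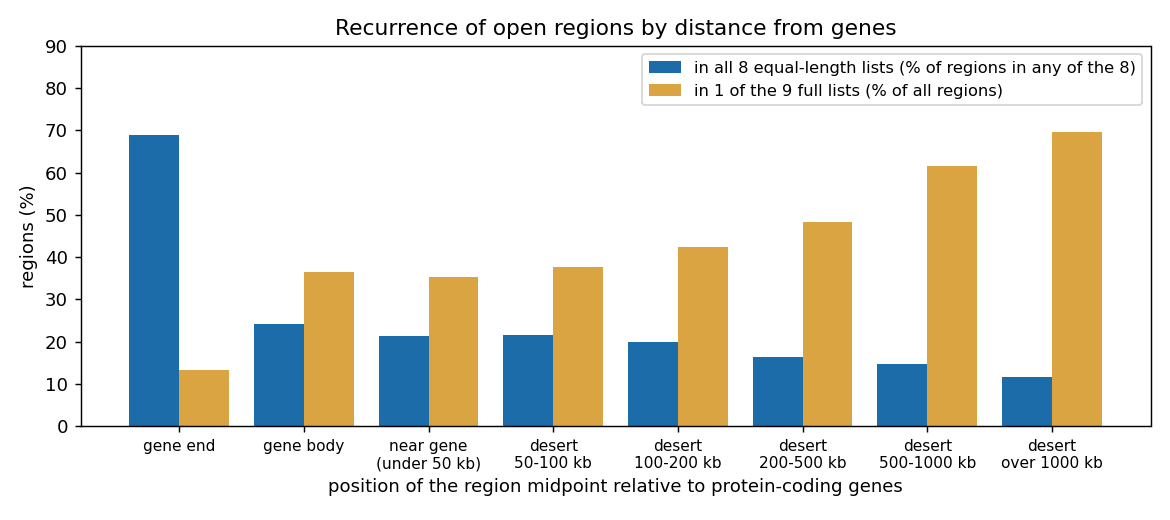
Share of open regions (%) that recurred in all 8 lists of equal length (blue, of regions in any of the 8) and share that came from 1 of the 9 full lists (yellow, of all regions), by position relative to protein-coding genes. The blue bars fall from 68.9% at gene ends to 11.7% in deserts beyond 1 Mb, and the yellow bars rise from 13.3% to 69.7%.

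Peaks in deserts sat in the lower 50% of the ranking in the median, as near-gene peaks did and gene-end peaks did not. The rank of a peak is given as a percentile of its list, with 100 the strongest. The median percentile of desert peaks was 38.2 and 38.6 for WT, 39.7 and 39.5 for Bcat_KO, 38.3 and 39.0 for HOXA9_KO and 40.5 and 40.4 in PRMT1_KO. Near-gene peaks had medians of 37.8 to 39.7 and gene-end peaks of 71.2 to 74.3. Within a library, desert peaks were 0.422 ± 0.594 percentile points (SD, n = 8) above near-gene peaks, higher in 7 of 8 libraries, which did not pass an exact sign-flip permutation test (two-sided, p = 0.0547, adjusted p = 0.082 over 3 tests). In the lists as deposited the sign turned, to 1.69 points lower (−1.69, exact permutation adjusted p = 0.0078), so the difference depends on how far down the lists reach. It also turned, to −0.721, without WT replicate 2, the library that sets the list length. Desert peaks were narrower than near-gene peaks in 8 of 8 libraries, by 6.69 ± 3.08 bp (SD, n = 8) in the medians (exact sign-flip permutation test, p = 0.0078, the smallest these libraries allow, adjusted p = 0.0234). That width difference did not pass without regions of at most 250 bp (−4.88 bp, exact permutation adjusted p = 0.0938) or without WT replicate 2 (−8.43 bp, adjusted p = 0.0938). The share of desert regions that the other library of the pair also had was 67.1% and 67.8% in WT and 75.6% to 79.8% in the mutants. It differed from that of near-gene regions by −0.666 ± 1.48 points (SD, n = 8; exact sign-flip permutation p and adjusted p = 0.25), and by −2.79 points in the lists as deposited (exact permutation adjusted p = 0.0078).

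Deserts took between 9.89% and 11.0% of the strongest peaks in the 8 libraries of the paired groups. In lists of equal length the desert share was 10.1% in both WT libraries, 10.1% and 10.3% in Bcat_KO, 10.8% and 11.0% in HOXA9_KO, and 9.89% and 10.2% in PRMT1_KO. Both HOXA9_KO libraries lay above the other 6, but the division by genotype did not pass an exact permutation test that counted every division of the 8 libraries into pairs (two-sided, p = 0.114, adjusted p = 0.171 over 6 tests). The median percentile, given above, was on average 1.17 points higher in the single mutants than in WT, though HOXA9_KO replicate 1 lay between the WT libraries (exact permutation p = 0.0190, adjusted p = 0.0571). The median width of desert peaks was 318 to 429 bp across the 8 libraries (exact permutation p and adjusted p = 0.962), and the range within WT was as wide as that over all libraries. In the full lists, WT had 3970 and 2750 desert regions, Bcat_KO 4849 and 5123, HOXA9_KO 4773 and 4902, and PRMT1_KO 4815 and 4174. Each mutant library was above both WT libraries, with means of 4772.7 ± 317.96 (SD, n = 6) and 3360 ± 862.7 (SD, n = 2). This too did not pass after adjustment (exact permutation p = 0.0476, adjusted p = 0.0952), and both WT libraries were the shallowest of the 8, whose part in the count was not tested.

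**Figure D2:**
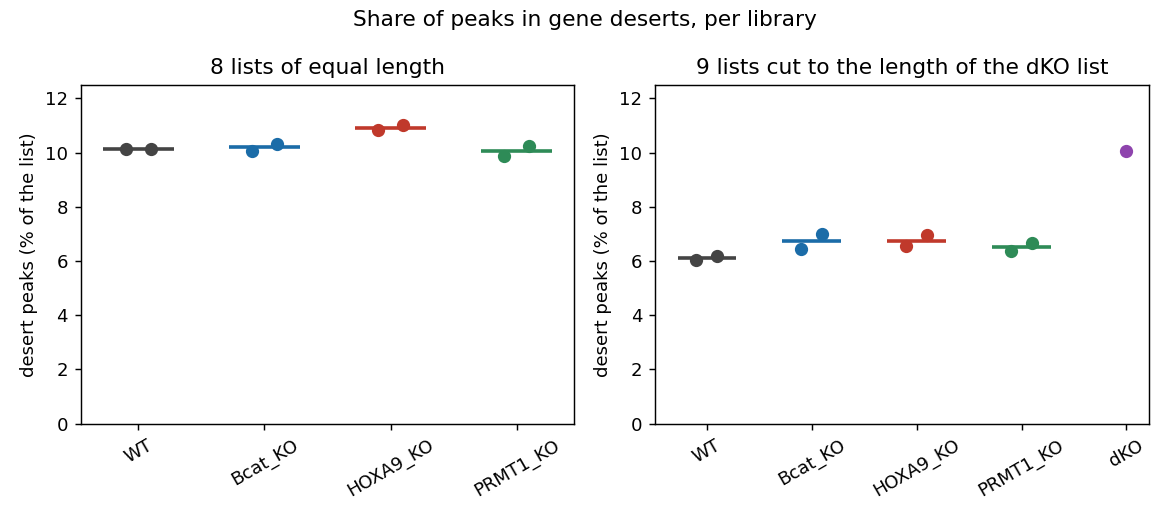
Share of peaks in gene deserts (% of the list) for each library, one point each, with the group mean as a line, in the 8 lists of 27536 peaks (left) and in 9 lists of 10307 peaks (right). On the left all libraries lie between 9.89% and 11.0%, and on the right the dKO point at 10.1% lies above the 6.03% to 7.01% of the other 8. On the right the dKO list is whole and the other 8 are cut to their strongest peaks.

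The libraries of a genotype shared more desert regions with each other than with other genotypes, except in WT. The Jaccard index, the shared desert regions over all desert regions of 2 lists, was 0.505 for the WT pair, 0.619 for Bcat_KO, 0.613 for HOXA9_KO and 0.648 for PRMT1_KO. Between genotypes it averaged 0.510, against 0.596 within (one-sided exact permutation p = 0.00952, the smallest that these divisions allow, adjusted p = 0.0571). WT replicate 1 had an index of 0.536 with PRMT1_KO replicate 1, above that of the WT pair. Bcat_KO and PRMT1_KO were the closest genotypes at 0.584 to 0.605, and HOXA9_KO and PRMT1_KO had 0.480 to 0.493. By group, 1854 of the 5845 members were in both WT lists (31.7%), 2121 in both Bcat_KO lists (36.3%), 2269 in both HOXA9_KO lists (38.8%) and 2160 in both PRMT1_KO lists (37.0%).

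A region counted as closed in a mutant if both WT lists of equal length held it in their upper 50% and neither mutant list held it, and as opened if the mutant held it in that way and WT did not. For 1 region, 2 libraries against 2 allow no p under 0.33, so no region was tested alone. In HOXA9_KO, 49 desert regions of 5004 tested opened (0.979%), where the background over all autosomal regions was 0.489%. Near-gene regions had 0.432%, regions inside genes 0.637% and gene ends 0.109%. Closed in HOXA9_KO were 18 (0.360%) against a background of 0.182%, with 0.299% near genes. In Bcat_KO, 16 of 4667 opened (0.343%, background 0.294%) and 6 closed (0.129%, background 0.0912%), shares near the background. In PRMT1_KO, 15 of 4571 opened (0.328%, background 0.203%) and 8 closed (0.175%, background 0.0718%). The 3 comparisons use the same WT libraries. Gene-end regions were the least often called class in each of the 6 counts, and they lower each background.

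**Figure D3:**
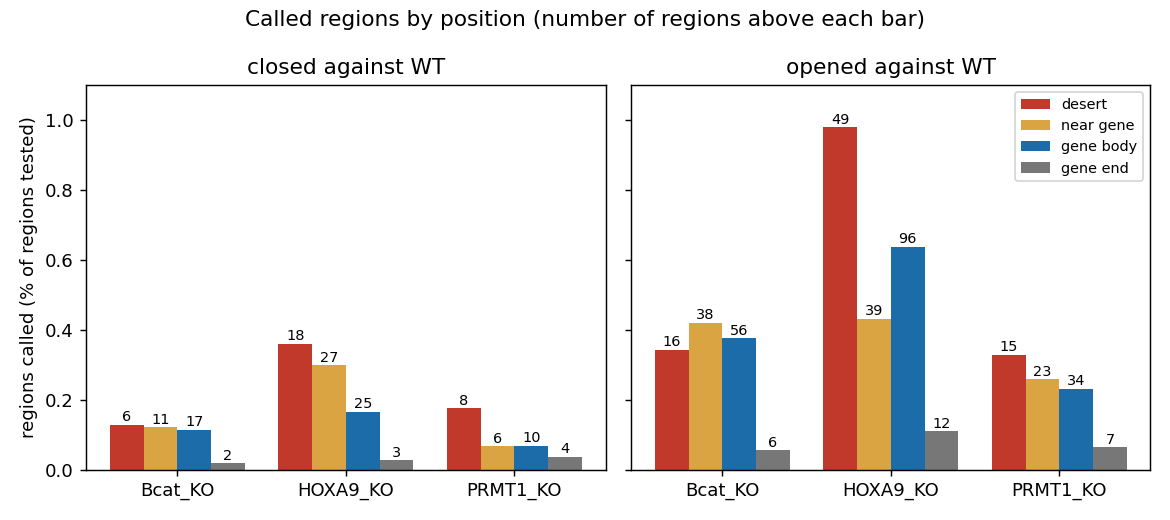
Regions called closed (left) or opened (right) against WT in lists of equal length, as a percent of the regions tested in each class, with the number of regions above each bar. Desert regions opened in HOXA9_KO stand at 0.979%, and for Bcat_KO the desert bar at 0.343% is below the near-gene bar at 0.421%.

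The counts moved with the processing, and they were larger whenever 1 library stood for its group. Without WT replicate 1 or WT replicate 2, respectively, opened desert regions numbered 92 and 142 for HOXA9_KO, 54 and 85 for Bcat_KO and 53 and 71 in PRMT1_KO. The shares of all regions rose as well. Opened desert regions made up 2.02% and 2.22% for HOXA9_KO, against 1.218% and 1.38% of all regions. The same shares were 1.28% and 1.44% against 0.995% and 1.101% in Bcat_KO, and 1.28% and 1.24% against 0.934% and 0.9497% in PRMT1_KO. Where a peak had to cover at least 50% of the region, the HOXA9_KO closed share in deserts, 0.405%, was no longer above that of all regions, 0.412%, and the opened share was 0.945% against 0.583%. Without regions of high local background, defined further on and left out after the data were seen, HOXA9_KO had 51 opened members and 18 closed. These 2 counts come without shares, and nothing is read from them.

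The 49 members that opened in HOXA9_KO were spread over 16 chromosomes, at a median of 171 kb from a gene, and 39 of them had no WT peak in the full lists. This held for 12 of the 16 opened in Bcat_KO and 12 of the 15 in PRMT1_KO. The full list of WT replicate 2 is its list of equal length, so only WT replicate 1 could add a peak. The member opened in HOXA9_KO with the highest rank lay 173 kb from Fam181b (chr7:93254179-93254819, 641 bp). Its fold was 16.002 and 18.5 for HOXA9_KO, 5.61 and 8.49 for Bcat_KO and 6.16 in the dKO, with no peak in WT or PRMT1_KO. Both HOXA9_KO libraries stood above the others, a gap favoured by picking opened regions by their HOXA9_KO rank. The summit held 40 and 48 reads in HOXA9_KO against 12 and 18 in Bcat_KO.

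The region 831 kb from Tlr4, the receptor of bacterial lipopolysaccharide (chr4:67677556-67678166), had a fold of 13.6 and 14.7 in HOXA9_KO. Bcat_KO had 5.61 and 7.15, PRMT1_KO 5.76 in replicate 1 alone, the dKO 6.59 and WT none. The region 126 kb from Fastkd2, towards the zinc finger gene Klf7 (chr1:63879432-63880029), had 11.7 and 14.9 for HOXA9_KO, 4.75 and 5.81 for Bcat_KO and 3.84 and 4.94 in PRMT1_KO. In both regions the HOXA9_KO libraries did not overlap with any other, which the choice by HOXA9_KO rank favours. The region 82.5 kb from Sema5a (chr15:32778562-32779163) had 13.8 and 12.3 for HOXA9_KO, 6.91 and 9.33 for Bcat_KO, 5.38 and 5.35 for PRMT1_KO, 6.41 in the dKO and 3.83 in WT replicate 1. The fifth, 735 kb from Ctnnd2, which encodes δ-catenin (chr15:29437664-29438157), had 11.8 and 14.7 in HOXA9_KO and was as strong in Bcat_KO, at 12.9 and 12.54. PRMT1_KO had 5.76 and 4.12 there, and WT and the dKO had no peak. It thus counted as opened in both mutants.

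Across the 49, the other mutants differed in how often they had a peak. Bcat_KO had one in both lists of equal length for 30 members, in 1 list for 9 and in neither for 10. PRMT1_KO had one in both lists for 16, in 1 for 11 and in neither for 22. The dKO, labelled as a Hoxa9 mutant too, had a peak at 12 of the 49 (24.5%). Of the 850 desert regions in the upper 50% of both HOXA9_KO lists, 44.4% had a dKO peak, and of all 5004 tested 12.7% did.

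Closed regions in HOXA9_KO more often had a weak peak in the full lists than none. The call uses only 27536 peaks, while the full HOXA9_KO lists held 38961 and 40350 autosomal peaks. A peak below the cut can therefore remain at a region called closed. The region 77.3 kb from Cxxc4, an inhibitor of Wnt signalling (chr3:134339214-134339718), had a fold of 9.69 and 9.29 in WT, 8.91 and 11.4 for Bcat_KO and 11.3 and 10.5 in PRMT1_KO, but 4.41 and 5.01 in HOXA9_KO. The region 266 kb from Pkn2, a protein kinase gene (chr3:143147437-143147961), had 9.36 and 9.59 in WT, 9.77 and 9.75 for Bcat_KO, 13.1 and 12.3 for PRMT1_KO, and 4.41 and 4.10 in HOXA9_KO. Likewise, the region 135 kb from Tmem68 (chr4:3413557-3414467) had 7.60 and 8.65 in WT against 3.97 and 4.55 in HOXA9_KO. In these 3 regions both HOXA9_KO libraries were below the other 6, and the dKO had no peak. The gap from WT is favoured by the call and by the choice of regions by WT rank. The region 75.9 kb from Cyp7b1 (chr3:18319498-18320040) had 9.30 and 8.86 in WT and no peak in HOXA9_KO or the dKO. Of all 18 closed members, 7 had no HOXA9_KO peak in the full lists, 14 were in both PRMT1_KO lists of equal length and 15 in both Bcat_KO lists.

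**Figure D4:**
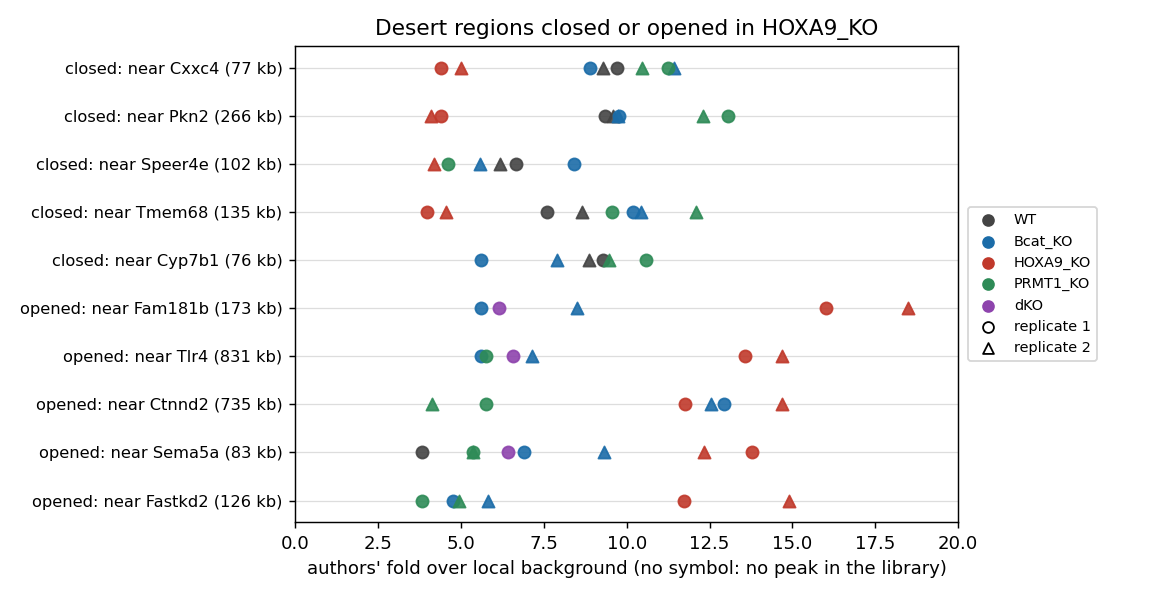
The authors' fold over local background in each library (circle, replicate 1; triangle, replicate 2) at the 5 closed and 5 opened desert regions of HOXA9_KO with the highest rank, labelled by nearest gene and distance. HOXA9_KO symbols lie at 3.97 to 5.01 in the closed regions where it had a peak, and at 11.7 to 18.5 in the opened ones.

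The region of high rank that closed in Bcat_KO lay 260 kb from Pdha2 (chr3:140950080-140950885). It had a fold of 11.4 and 9.64 in WT, 8.19 and 11.97 for HOXA9_KO, 6.53 and 8.65 for PRMT1_KO, 4.68 in the dKO and 4.75 and 4.47 in Bcat_KO. Another closed region lay in Mir99ahg, the host transcript of a microRNA cluster (chr16:77444018-77444779). There WT had 7.07 and 8.23, Bcat_KO had 5.36 in replicate 2 alone, HOXA9_KO 5.46 and PRMT1_KO 7.83, both in replicate 2 alone. Every replicate 1 library but that of WT lacked this peak. Closed in Bcat_KO were also regions 175 kb from Cdkn2b (chr4:89485880-89486494), 67.7 kb from Psat1 (chr19:15836694-15838100) and 291 kb from Cbln2 (chr18:87009357-87009980).

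Of the 5 opened Bcat_KO members of highest rank, 2 lay at the start of the chromosome 9 assembly, where local background was high in part. One, of 182 bp (chr9:3022063-3022244), had a fold of 2.07 and 2.19 for Bcat_KO, 1.97 and 2.10 for PRMT1_KO and 1.88 in HOXA9_KO replicate 2 on a background 193 times the floor of the lists. The other, 76.5 kb from Alkbh8 (chr9:3258423-3258941), was without such background and had a fold of 13.7 and 16.9 for Bcat_KO and 3.32 in the dKO, with no peak in the other 6 libraries. It was the 1 desert region in the upper 50% of both Bcat_KO lists of equal length and outside the other 6. Another, of 150 bp inside the gene 2210408I21Rik (chr13:77438908-77439057), had 17.3 and 20.6 for Bcat_KO, 20.2 and 22.5 for PRMT1_KO and 17.3 in HOXA9_KO replicate 2, with no peak in the other 4. In each of those 4 lists the narrowest peak was wider than 150 bp, so a peak of this width could not be listed there. Nothing is read from its absence. One region 62.7 kb from Zfp438, on the side of Zeb1 (chr18:5397357-5397705), had 10.2 and 12.6 for Bcat_KO, 12.3 and 8.92 for PRMT1_KO, 7.22 and 5.92 for HOXA9_KO, and none in WT.

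In PRMT1_KO, 3 of the 5 closed members of highest rank lay in 1 interval, between Speer4e and Speer4d on chromosome 5. The region at chr5:15506962-15507463 had a fold of 6.60 and 5.58 in WT, 6.53 and 6.32 for Bcat_KO, 6.14 and 7.54 for HOXA9_KO, 4.08 in the dKO and none in PRMT1_KO. The wider one at chr5:15006407-15008345 had 5.55 and 5.10 in WT, 4.31 to 5.33 in the Bcat_KO and HOXA9_KO libraries, 4.55 in the dKO and again none in PRMT1_KO. The remaining one (chr5:15039733-15040305) was closed in HOXA9_KO as well. This interval, a cluster of sperm-expressed gene copies, held 73 desert regions, none of them in all 8 lists of equal length. A region 113 kb from Rgs21 (chr1:144406579-144407077) had 7.22 and 10.6 in WT, 7.77 and 7.60 for Bcat_KO, 10.9 in HOXA9_KO replicate 2, 3.42 in the dKO and none in PRMT1_KO. Of the opened members, that 98.2 kb from Wwox towards the transcription factor gene Maf (chr8:115450618-115451228) had 11.8 and 9.37 for PRMT1_KO, 10.3 and 9.98 for Bcat_KO, 9.28 and 13.8 for HOXA9_KO and 3.40 in WT replicate 1 alone. It was opened in all 3 single mutants. That 50.8 kb from Ywhaz (chr15:36719270-36719630) had 8.02 and 9.87 for PRMT1_KO, 3.98 to 7.48 in the Bcat_KO and HOXA9_KO libraries and 2.96 in WT replicate 1.

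Few desert regions belonged to 1 genotype alone, in the upper 50% of both of its lists and outside the other 6. HOXA9_KO had 9 of 5845 (0.154%) against a background of 0.0483% of all autosomal regions. PRMT1_KO had 2 (background 0.00658%), Bcat_KO 1 (background 0.011%) and WT 1 (background 0.00658%). In WT it lay 111 kb from Mrps30 (chr13:118269096-118269506), with a fold of 7.66 and 6.89 in WT and 3.30 in PRMT1_KO replicate 2. In HOXA9_KO the first by rank lay 152 kb from Faxc (chr4:22153089-22153698), with a fold of 9.81 and 12.04, and with 4.75 in Bcat_KO replicate 1 and 5.05 in the dKO. That 58.7 kb from the potassium channel gene Kcna4 (chr2:107231699-107232115) had 11.2 and 9.87 for HOXA9_KO, 4.74 in the dKO and no other peak. That 95.6 kb from Hao2 (chr3:98990573-98991331) had 9.58 and 11.0 in HOXA9_KO and weak peaks of 3.83 to 4.83 in WT replicate 1 and both Bcat_KO libraries. Of the 9, 4 had a dKO peak. In PRMT1_KO the 2 lay 77.6 kb from Atg7, an autophagy gene (chr6:114565417-114565712, fold 11.1 and 9.89, dKO 8.79), and 793 kb from Frg1 (chr8:42210067-42210342, fold 9.60 and 10.1). A HOXA9_KO region 73.8 kb from Kitl, the gene of the ligand of Kit (chr10:99941544-99942033), was picked out after its values were seen. It had a fold of 11.2 and 9.003 for HOXA9_KO, 5.36 in Bcat_KO replicate 2, 3.84 in PRMT1_KO replicate 1, 6.16 in the dKO and none in WT.

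In the dKO, 1037 of 10307 autosomal peaks lay in deserts, 10.1% with a 95% Wilson interval of 9.50% to 10.7% that covers counting error only. The other 8 libraries, cut to the same length, had 6.03% to 7.01%. That cut keeps only the strongest peaks of the 8 but the whole dKO list. In the lists as deposited the 8 had 10.12% to 12.4%, all above the 10.06% of the dKO. The direction thus depends on the list length. The dKO has 1 library, so neither difference has a replicate check, and its depth is the lowest of the 9. Its 1024 desert regions fell into 461 that all other 8 full lists also had (45.02%), 330 that none of the 8 had (32.2%), and the rest in between. Among its 5153 stronger peaks 7.16% were in deserts, and 23 of those 369 desert peaks were in none of the other 8 libraries. Among its 5154 weaker peaks 13.0% were in deserts, and 307 of those 668 (46.0%) had no counterpart.

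The strongest desert regions were not typical of the rest. A high local background was called where the background at the summit, recovered from fold and p, was on average at least 5 times the floor of the list, a limit set after the data were seen. Of the 20 desert regions with the highest mean percentile 18 had such a background, of the first 100 there were 27, and of all 11213 only 54 (0.482%). Near-gene regions had 0.503% and gene ends 3.01%. The region first in all 9 libraries lay on chromosome 2 (chr2:98666248-98667327), 1035 kb from Lrrc4c, with 17475 to 19927 reads at its summit in the 8 libraries and 11229 in the dKO. Its background was 602 times the floor, and its fold was 22.2 and 24.6 in WT, 28.1 and 29.9 for Bcat_KO, 25.4 and 27.7 for HOXA9_KO, 26.5 and 28.6 for PRMT1_KO and 23.0 in the dKO.

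The next ones lay at the start of the chromosome 9 assembly (chr9:3023009-3026056, chr9:3000002-3004821, chr9:3006273-3008141 and chr9:3012138-3019161), on chromosome 14 (chr14:19415722-19419468) and on chromosome 12 (chr12:3109869-3110115). With a second one on chromosome 2 (chr2:98662238-98662902) these made up the 8 of highest rank. Their ranks hardly moved between libraries, and 5 of the 8 were also the 5 strongest desert regions of the dKO. Sites of this kind are commonly masked in ATAC-seq, and no mask was used here.

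Narrow peaks with a high fold, at most 250 bp and at least 10 times the background, were rare: 8 desert regions (0.0713%), against 0.0308% of all regions. The extreme was chr12:3109869-3110115, with 247 bp and a fold of 50.3 to 69.9 in the 8 libraries, on a background 41.1 times the floor. The other narrow ones had ordinary background, such as that 69.5 kb from Creb3l1 (chr2:92093597-92093786, 190 bp), with a fold of 17.0 at the lowest and 23.7 at the highest of 8 libraries. One 131 kb from Zfp521 (chr18:14103260-14103404) was in Bcat_KO replicate 1 alone, at 15.1, and one 263 kb from Mc2r (chr18:68692059-68692302) had 20.3 to 25.9 in the 8 libraries. Of desert peaks, 0.287% and 0.359% were narrow with a high fold in WT, 1.23% and 1.41% for Bcat_KO, 0.839% and 1.55% for HOXA9_KO and 0.881% and 1.38% for PRMT1_KO. All 6 mutant libraries were above WT, but the division by genotype did not pass (exact permutation p = 0.181, adjusted p = 0.217). The lists also differ in the narrowest peak they hold, which was wider in both WT lists than in any single-mutant list. The part of this limit in the narrow share was not tested.

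The reverse form, a high rank with a fold under 3, was found in 5 members, all on high background. One was 5740 bp wide at an 18S ribosomal RNA copy, Rn18s-rs5 (chr17:39843047-39848786), with a fold of 2.39 to 3.07 over the 8 libraries. The others lay beside the strongest sites (chr2:98664980-98665208, chr9:3022063-3022244, chr9:3022473-3022600 and chr9:3010889-3011116). Any of the 3 forms was present in 61 desert regions (0.544%), against 1.08% of all autosomal regions. These forms, called repeat-like here, were present in 18 of the 20 strongest desert regions, 23 of the first 50 and 29 of the first 100. Whether the regions are repeats was not tested, and high background was more frequent at gene ends than in deserts.

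**Figure D5:**
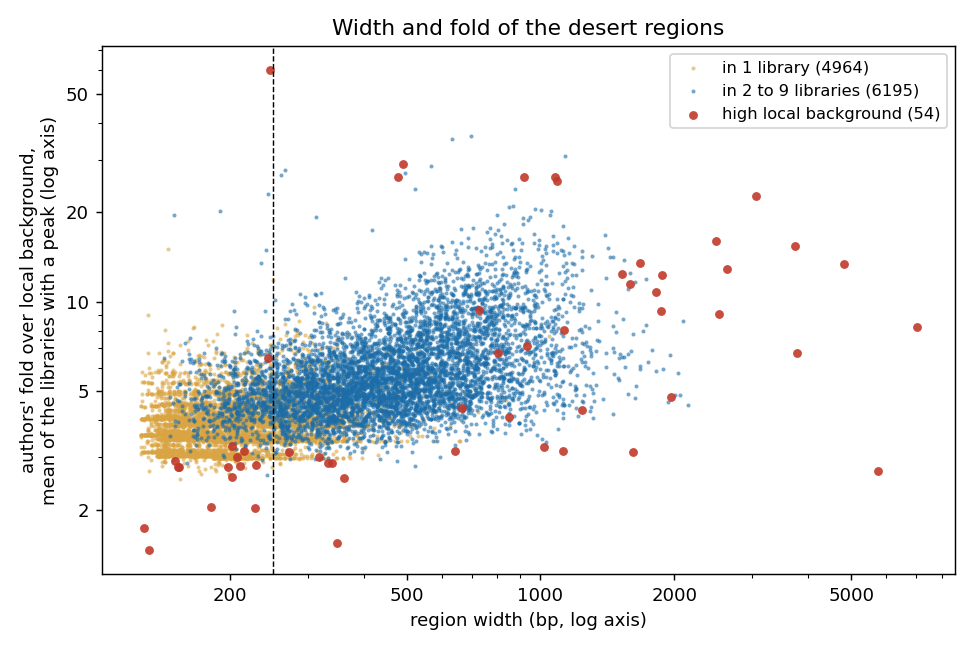
Width (bp, log axis) and the authors' fold averaged over the libraries with a peak (log axis) of all 11213 desert regions, with those of 1 library in yellow, those of more in blue and the 54 of high local background in red. The dashed line marks 250 bp, to the left of which 85.6% of the regions were in 1 library, and the red points spread to both the highest and the lowest folds.

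Copied sequence was also visible at promoters. Of the 398 promoter windows at desert regions, 56 (14.1%) had more than 50% of their 31-letter words in the window of another gene, and 293 had none. Among the strongest members without high background were the promoters of Gm14410 and Gm14325, gene copies in a zinc finger cluster of chromosome 2 whose names kept them out of the distance rule. They are shown to make the copying visible, as the stretch of 243 bases in which they align without gaps (minus strand, chr2:177206447-177206689 and chr2:177840344-177840586), with the 10 positions that differ in capitals.
Gm14410: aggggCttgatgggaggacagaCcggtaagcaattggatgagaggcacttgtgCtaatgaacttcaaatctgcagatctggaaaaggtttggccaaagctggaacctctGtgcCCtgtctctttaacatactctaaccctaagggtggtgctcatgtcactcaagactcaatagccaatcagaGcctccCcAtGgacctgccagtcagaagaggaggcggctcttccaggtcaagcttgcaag
Gm14325: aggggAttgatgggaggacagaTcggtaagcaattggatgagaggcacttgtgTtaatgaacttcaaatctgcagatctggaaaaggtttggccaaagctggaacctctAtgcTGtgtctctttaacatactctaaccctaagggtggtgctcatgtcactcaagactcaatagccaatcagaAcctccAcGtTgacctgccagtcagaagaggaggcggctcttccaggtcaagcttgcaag
The identity over this stretch was 95.9%. The Gm14410 region (chr2:177205933-177206811) had a fold of 21.2 and 22.2 in WT, 24.4 and 27.2 for Bcat_KO, 23.6 and 27.0 for HOXA9_KO, 27.5 and 31.3 for PRMT1_KO and 11.8 in the dKO. Reads that fit several copies cannot be assigned by these files, so levels at such members are uncertain. A member at Mir713 (chr13:62760230-62761046), for which copying was not measured, was also among the stronger ones, with 11.9 to 23.6 in the 8 libraries.

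A list of the 12 strongest members without a repeat-like form was made after the data were seen. Their mean background was 2.00 to 4.86 times the floor, under the limit of 5 but above the median of 1.00 over all desert regions. Of the 12, 3 overlapped no annotated gene. That near Cr2 (chr1:195241403-195242035) had a fold of 27.1 and 32.8 in WT, 36.5 and 43.3 for Bcat_KO, 38.6 and 42.4 for HOXA9_KO, 38.1 and 39.7 for PRMT1_KO and 19.6 in the dKO. That near Fgf14 (chr14:124801553-124802251) had 31.9 to 44.0 in the 8 libraries and 31.8 in the dKO. That near Vmn2r87 (chr10:130594442-130595007) had 27.0 to 34.4 and, in the dKO, 17.1. Each of the 3 lay past the last gene that the distance rule counts on its chromosome.

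The 5 members farthest from any gene, among those in all 8 lists, differed in strength. That 1812 kb from G6pd2 (chr5:59996606-59997055) had a fold of 5.65 at the lowest, in HOXA9_KO replicate 1, and of 16.1 and 15.9 in PRMT1_KO. That 1728 kb from Sel1l (chr12:93576972-93577238) was only 267 bp wide and had 25.8 to 32.2 in the 8 libraries and 20.7 in the dKO. That 1412 kb from Cntnap5b (chr1:101901928-101903017) had 12.4 to 18.3. A pair lay in the desert after Zeb2, a zinc finger repressor needed for blood stem cell differentiation: chr2:46442910-46444179, 1326 kb away, with 5.14 to 9.43 and percentiles of 24.5 to 56.2, and chr2:46370822-46371388, 1254 kb away, with 12.3 to 16.6 and 8.02 in the dKO.

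Desert regions near stem and progenitor regulators were counted from a fixed gene list. From a list of 50 such genes, 26 were the nearest gene of at least 1 member, with 298 members in all (2.66% of the desert regions, against 1.04% of the near-gene regions). Of the 176 in the lists of equal length 34 (19.3%) were in all 8, the same share as over all desert regions. None of the 298 closed or opened in any of the 3 single mutants. With backgrounds of 0.0718% to 0.489% over all regions and 176 members in the lists, a count of 0 is near the background, and nothing is read from it. Sox4, which keeps progenitors immature, was nearest to 36, Id2, an inhibitor of E proteins, to 34, Bcl11a, a repressor of fetal globin, to 26, Zeb2 to 24 and Klf6, a zinc finger gene, to 21.

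The strongest of these in all 8 lists by percentile lay 269 kb from Klf6 (chr13:5591982-5593051), with a fold of 13.6 at the lowest, 17.6 in the median and 23.2 at the highest, and 8.29 in the dKO. That 59.0 kb from Cd34, a surface marker of progenitors (chr1:194879471-194880239), had 11.995, 16.4 and 18.2 in the same order. That 74.3 kb from Kit, the stem cell factor receptor (chr5:75730570-75731516), had 8.82, 13.8 and 17.5. Near Klf6 both WT libraries, at 13.6 and 16.6, lay below all 6 single-mutant libraries, of which the lowest had 16.8. Near Cd34 and Kit, WT overlapped with the mutants. Near Sox4 (chr13:28838818-28839595) the fold was 7.36 to 13.8, with both WT libraries the lowest, and near Bcl11a (chr11:24226574-24227363) 6.33 to 14.1. The median fold of all desert peaks in the lists of equal length was also lower in WT. It was 5.96 and 5.65 there, against 7.06 to 7.68 in the single mutants. The lower WT folds near Klf6 and Sox4 are thus not particular to these places.

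From a list of 33 neural and other lineage regulators, 23 genes were nearest to 106 members (0.945%, against 0.525% of the near-gene regions), and from 25 myeloid and lymphoid genes 7 were nearest to 58 (0.517% against 0.328%). Of these, 7 each were in all 8 lists. None was called, of 37 and 36 in the lists of equal length, from which nothing is read at the same backgrounds. Gata3, needed for T cell development, had the strongest (chr2:9593803-9594507, 263 kb away), with a fold of 15.5, 19.002 and 21.6 at the lowest, median and highest. Cebpb, a myeloid transcription factor, had 4 of its 8 members in all 8 lists. Among the neural genes, the cadherin gene Cdh12 had a member 591 kb away (chr15:19856999-19857984) with 14.0 to 17.3, and 9.15 in the dKO.

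The desert after Myc, known for enhancers that keep Myc on in blood cells, held 22 members, 3 of them in all 8 lists. The strongest lay 1658 kb past Myc (chr15:63647770-63648799), with a fold of 11.9 and 13.0 in WT, 18.4 and 16.5 for Bcat_KO, 13.8 and 17.6 for HOXA9_KO, 15.3 and 16.5 for PRMT1_KO and 8.74 in the dKO. One member, 1714 kb past Myc (chr15:63704577-63705103) and picked out after its values were seen, was closed in HOXA9_KO, with 4.86 and 5.01 there, 7.497 and 6.89 in WT, 7.77 and 7.53 for Bcat_KO and 9.16 and 9.15 in PRMT1_KO.

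Members were unevenly spread over the genome. There were 2513 intervals of over 100 kb between genes, 1782 of them with a member, and the density was 12.3 regions per Mb of desert. The fullest interval, 635 kb between Slc16a14 and Sp110 on chromosome 1, held 160 members, but 2 of them were in all 8 lists and 11 had high background. The interval between Defb7 and Defb33, in the defensin cluster of chromosome 8, held 140, with 12 in all 8. That between Adam6a and Zfp386 on chromosome 12, which holds the variable segments of the immunoglobulin heavy chain, had 81, of which 52 overlapped a segment and 4 were in all 8. The Speer4e interval, given above, had 73 and none. The adhesion receptor genes Adgrl2 and Adgrl4 on chromosome 3 flank 60, with 10 in all 8, the highest share of the 5.

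Of the 11213 members, 8071 (72.0%) overlapped no annotated gene at all. A long non-coding RNA was overlapped by 2364 (21.1%), a protein-coding gene of Gm or Rik name by 396 (3.53%), a pseudogene by 249 (2.22%), an immunoglobulin or T cell receptor segment by 73 and a microRNA by 3. Members with an annotated gene were in all 8 lists in 22.9% of cases and those without in 17.8%, both over the members in any list of equal length. The segments had 9.09%. By chromosome, deserts held from 6.92% of the regions on chromosome 19 to 22.0% on chromosome 14. At the edge of the distance rule, the members just inside lay 50003, 50016 and 50017 bp from Prkar2b, D16Ertd472e and Elovl4, with a mean fold of 4.98, 9.25 and 5.59. The regions just outside lay 49996 bp from Psmg1 and from Tmem26 and 49990 bp from Tle3, with 5.61, 12.2 and 7.01.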

How the data were processed

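ATAC-seq libraries, 9 in all, were made from 50000 LSK cells each, with tagmentation for 30 min at 37 °C and 10 amplification cycles, per the labels. Per the submitters' processing notes, the authors used Bowtie2 2.4.2, SAMtools 1.14, Picard 2.27.4 and MACS2 on GRCm38/mm10. Parameters are not given in the sources used here, and the deposited peak names carry words for removed unmapped reads and duplicates. Each library has its own peak list, and no normalization links the lists. The deposited narrowPeak columns hold, as the authors' values, a fold over local background (a ratio), a −log10 p-value, a −log10 q-value and a score of 10 times the −log10 q-value.

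Peaks sharing at least 1 bp were merged on autosomes and placed against RefSeq genes (GRCm38.p6). Percentiles rank peaks by −log10 p within a list of 27536 peaks, or 10307 with the dKO. Local background and summit reads were solved from fold and p together, and the reads were whole within 0.01 for at least 99.995% of the peaks in the 8 libraries and 98.8% in the dKO. Group values were tested by exact permutation over all divisions of 8 libraries into pairs, and differences from near-gene peaks by sign flips over 8 libraries, with Benjamini-Hochberg adjustment. These tests were two-sided, except that of the Jaccard index, which was one-sided for a higher index within pairs. The steps were tested on simulated data. The precision is limited by 2 libraries a group.

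Members, gene lists and the rule for named regions were chosen with earlier results of these data known. The rule names the 8 strongest, up to 5 closed and 5 opened per mutant, up to 3 of 1 genotype, the 5 narrow, 5 low-fold and 5 farthest regions, the 5 fullest intervals and the 5 strongest of the dKO. Alternatives changed the distance, gene set, rank column, list length, overlap, q-value, width and libraries. Regions of high background were left out as an alternative chosen after seeing the data. Same-numbered replicates did not deviate together (6 correlations of −0.00598 to 0.0735 over 1129 regions). Sequences come from RefSeq promoter and microRNA tables, and sequence around other members, with its GC content, masking and motifs, was not analysed here. Python 3.11.15, NumPy 2.4.6, pandas 2.3.3, SciPy 1.17.1 and matplotlib 3.10.9 were used. Some lineage marker genes that were examined are not reported here.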

Additional observations from a re-analysis of the deposited data

Results flagged for a closer look

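On chromosome Y, which is outside the autosomal comparisons, peaks more than 50 kb from a gene and before 90 Mb were present in the mutants and absent in both WT libraries. Bcat_KO had 5 in each library, HOXA9_KO 6 and 7, PRMT1_KO 5 in each, and the dKO 2, against 0 and 0 in WT. They were singled out as a signal above the WT level in data not used for the comparisons. In each comparison with WT, sex and genotype cannot be told apart. On chromosome X, desert peaks numbered 146 and 92 in WT and 76 to 113 in the single mutants.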

How the results depend on the processing

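The desert share, number, rank, width and narrow share of the genotypes did not pass their tests under any setting run. The Jaccard index sat at or near the smallest p its design allows (0.00952), which over 6 tests comes to 0.0571 and could not pass on its own, so its adjusted value says nothing about stability. The same limit held for the share, number, rank, width and narrow share. None of these could pass on its own either, so a failure to pass says little about stability. The difference from near-gene peaks was the least settled: in rank it came to 0.634 points with every protein-coding gene in the rule (exact permutation adjusted p = 0.0117), to 1.82 with ranks by fold (adjusted p = 0.0117) and to −1.69 in the full lists (adjusted p = 0.0078), where sharing with the other library of the pair came to −2.79 (adjusted p = 0.0078). The width difference came to −4.88 bp without regions of at most 250 bp (exact permutation adjusted p = 0.0938). Counts of called regions often moved. The distance and the gene set only change which regions count as members. The shares over all autosomal regions thus stayed the same at 25 kb, at 100 kb and with every protein-coding gene. For opened and closed they were 0.294% and 0.0912% in Bcat_KO and 0.203% and 0.0718% in PRMT1_KO. Counts at those settings come without a share in deserts, and nothing is read from them. With ranks by fold and in the full lists the shares over all regions moved as well. At 25 kb Bcat_KO had 11 closed and 26 opened. At 100 kb Bcat_KO had 9 opened and 0 alone, and PRMT1_KO 7 opened and 1 alone. With every protein-coding gene PRMT1_KO had 5 closed. With ranks by fold Bcat_KO had 12 closed and 33 opened, HOXA9_KO 78 opened and 17 alone, PRMT1_KO 25 opened and WT 3 alone, where the opened share in deserts and over all regions was 0.681% and 0.414% for Bcat_KO, 1.5003% and 0.710% for HOXA9_KO and 0.527% and 0.300% for PRMT1_KO. In the full lists Bcat_KO had 2 closed, 114 opened and 2 alone, HOXA9_KO 10 closed, 151 opened and 22 alone, PRMT1_KO 5 closed and 83 opened, and WT 0 alone, with opened shares of 1.44% and 1.18%, 1.91% and 1.24%, and 1.16% and 0.898% in the same order. The closed share of Bcat_KO was then 0.0253% in deserts and 0.0275% over all. Without regions of at most 250 bp PRMT1_KO had 5 closed and 1 alone, and WT 0 alone. With peaks required to cover 50% of the region Bcat_KO had 23 closed, 27 opened and 0 alone, HOXA9_KO 3 alone, and PRMT1_KO and WT 0 alone. Where a count of called regions in this paragraph has no share beside it, nothing is read from it. The dKO share came to 13.5% at 25 kb, 6.53% at 100 kb, 7.46% with a −log10 q of at least 5 and 8.63% without regions of at most 250 bp. The cause of these moves was not tested.

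Leaving out 1 library at a time gave a range of 10 to 61 closed and 46 to 85 opened regions in Bcat_KO, 26 to 80 and 91 to 142 in HOXA9_KO, and 12 to 59 and 38 to 71 in PRMT1_KO. Regions of 1 genotype alone ranged from 1 to 13 in WT, 1 to 2 in Bcat_KO, 9 to 27 in HOXA9_KO and 2 to 8 in PRMT1_KO. The lone library of a pair is easier to call, by construction. Shares are given above only for opened regions without a WT library, and nothing is read from the other counts. The mutant minus WT difference ranged from −0.508 (without WT replicate 2) to 0.372 points in share, from −27.5 to 45.1 bp (without WT replicate 1) in width, from 0.953 to 4.03 points in rank, from 803 to 2023 regions in number and from 0.710 to 0.966 points in narrow share. The Jaccard index within genotypes ranged from 0.579 to 0.626. Against near-gene peaks, rank ranged from −0.721 (without WT replicate 2) to 0.479 points, width from −8.43 (without WT replicate 2, exact permutation adjusted p = 0.0938) to −5.93 bp and sharing from −0.943 to −0.259 points.

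With the replicate number as a block, the differences stayed at 0.271 points in share, 1413 regions in number, 1.17 points in rank, −10.4 bp in width and 0.891 points in narrow share, and the block left exact permutation adjusted p-values of 0.208, 0.208, 0.208, 0.875 and 0.208. The smallest p the block allows is 0.0417, so adjusted values under 0.05 were nearly out of reach in advance. No paired analysis was possible for the counts of single regions because they come from no test. Of the values recomputed, 216 kept their call or moved little, 67 moved, 4 reversed, 3 passed a threshold they had missed and 2 no longer passed. The planned reading of sequence around summits was not run beyond promoters. Depth limits every statement on an absent peak, most of all in the dKO and WT replicate 2.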
